A study of Saccharomyces cerevisiae with 4 samples.

Results

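The 9 genes *NAM7* (YMR080C), *NMD2* (YHR077C), *UPF3* (YGR072W), *DCP1* (YOL149W), *DCP2* (YNL118C), *XRN1* (YGL173C), *DHH1* (YDL160C), *LSM1* (YJL124C) and *PAT1* (YCR077C) encode factors of mRNA decay, and their transcripts were followed in yeast cells lacking both *ESL1* and *ESL2*. They were taken by their systematic names from the 6256 genes on the array, and each had a probe. Nonsense-mediated mRNA decay (NMD) recognizes an mRNA whose translation stops too early and hands it to the general decay machinery. In that machinery the mRNA cap is removed by Dcp1 and Dcp2, with the help of Pat1, Dhh1 and the ring of Lsm1 to Lsm7, and the body is then degraded from the 5′ end by Xrn1. Esl1 and Esl2 resemble the metazoan NMD factors SMG5 and SMG6, and the arrays were made in search of transcripts that depend on them.

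Total RNA of wild-type Y52 cells, a W303-1A strain, and of the *esl1Δ esl2Δ* double mutant was hybridized in competition on 2-color Agilent arrays, in 3 biological replicates. Both strains were *MATa* haploids with *ura3-1*, *trp1-1*, *leu2-3, 122*, *can1-100* and *ade2-1* alleles and the *RAD5* gene, and the mutant additionally carried *esl1Δ::KAN* and *esl2Δ::NAT*. All cultures were grown at 30° in YPD (2% glucose, 2% peptone, 1% yeast extract) and taken in log phase. The mutant RNA carried Cy5 (red) and the wild-type RNA Cy3 (green) on the first 3 arrays, and the dye-swap array repeated the RNA of replicate 3 with the dyes exchanged and was counted within it. Whether the replicates came from separate clones is not given in the sources used here. Every value below is a log2 ratio of *esl1Δ esl2Δ* over wild-type unless it is called a level, and such a ratio compares shares of the RNA pool, so that fewer cells with a transcript and less of it per cell cannot be told apart.

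Gene spots had a median signal of 1660 to 5186 in a channel, against 22 to 49.5 for the local background. The deleted genes were low in every replicate, *ESL1* (YIL151C) with a mean log2 ratio of −4.50 ± 0.23 and *ESL2* (YKR096W) with one of −3.76 ± 0.20 (SD, n = 3). The mutant signal of *ESL1* was well above background on 3 of the 4 arrays and that of *ESL2* on all 4. The ratio of *ESL1* was −5.07 with a normexp offset of 0. It was −5.69 with the Feature Extraction log ratio, where it was no longer called (adjusted p = 0.0984 from limma). The ratio of *ESL2* moved too, to −4.19 and to −4.49 (adjusted p = 0.0251 from limma for the latter). All 6 *a*-cell marker genes examined were well above background in both strains on every array, as were 2 of the 4 *α*-cell markers (*STE3* and *SAG1*), while the *α*-factor genes *MF(ALPHA)1* and *MF(ALPHA)2* were so on 1 to 3 arrays. The *a*-cell markers had ratios below 0 in all 3 replicates for 5 of the 6 (18.5% of all genes), 4 had an unadjusted p below 0.05 by limma (13.3% of all genes) and 0 were called (0.112% of all genes), and their part in the results below was not tested. Replicate 3 stood apart from the others. Over 6254 genes, which do not count as replicates, its ratios correlated with those of replicates 1 and 2 at r = 0.102 and r = 0.214, whereas replicates 1 and 2 correlated at r = 0.681 and both arrays of replicate 3 at r = 0.844. The means of the 9 genes and of the gene lists are therefore also given without it. Without replicate 3 the mutant is in Cy5 on every array, so that strain and dye cannot be told apart in those fits.

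None of the 9 decay factor mRNAs passed the test for a difference between *esl1Δ esl2Δ* and wild-type cells. Their mean ratios lay between 0.929-fold for *NAM7* and 1.06-fold for *DHH1*, and for 0 of the 9 did limma give an adjusted p below 0.05 (Benjamini-Hochberg over all genes), an unadjusted p below 0.05 or a mean past 2-fold. Over all 6254 genes tested, 7 (0.112%) were called at an adjusted p below 0.05, 831 (13.3%) had an unadjusted p below 0.05 and 50 (0.799%) were past 2-fold. The adjusted p of the 9 genes ranged from 0.784 to 0.980. The unadjusted 95% confidence intervals are for 1 gene at a time. For them limma combined the spread between the 3 replicates of a gene with the spread over all genes. The spread over all genes gave 3.28 of the 5.28 degrees of freedom. The intervals do not cover a dye bias of a probe. Each of the 9 intervals lay within a 2-fold change in either direction, and together they spanned 0.689-fold to 1.35-fold. The 9 mean log2 ratios had a median of −0.0081, against −0.0049 over all genes, and 5 of the 9 means were below 0, as were 51.1% of all genes.

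**Figure D1:**
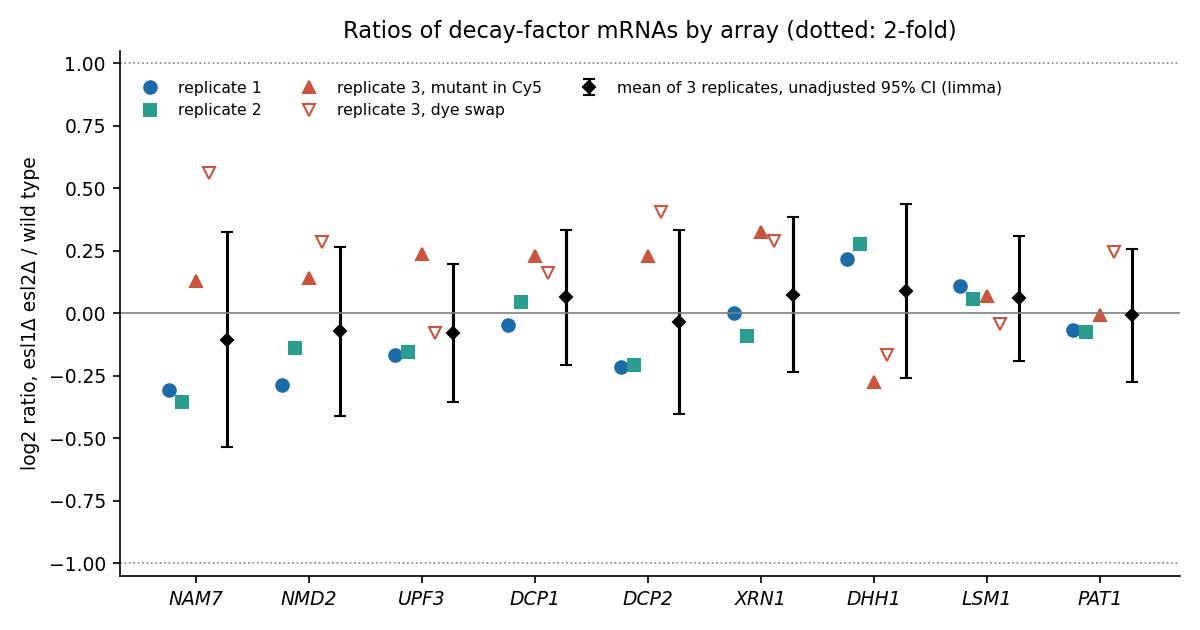
Log2 ratios of *esl1Δ esl2Δ* over wild-type (vertical axis) for the 9 decay factors, with 1 point per array, and the mean of 3 replicates with its unadjusted 95% confidence interval from limma (black). All points and intervals lie inside the dotted lines at 2-fold, and for 6 genes the mean of both points of replicate 3 lies on the other side of 0 than the points of replicates 1 and 2.

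**Figure D2:**
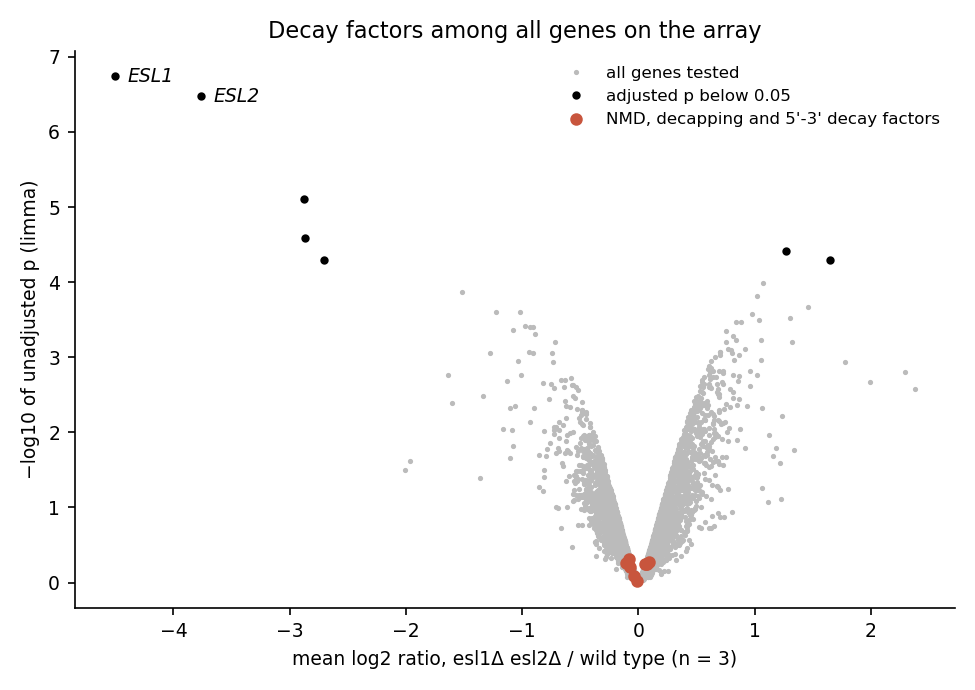
Mean log2 ratio (horizontal axis, n = 3) against −log10 of the unadjusted limma p (vertical axis) for the 6254 genes tested. The 9 decay factors (orange) sit at the bottom of the plot near 0, whereas the 7 genes with an adjusted p below 0.05 (black), among them *ESL1* and *ESL2*, stand far from it.

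The 3 NMD factors had ratios below 0 in replicates 1 and 2 and above 0 in replicate 3. For *NAM7*, which encodes the RNA helicase Upf1 at the core of NMD, replicates 1 to 3 gave −0.31, −0.36 and 0.34 on the log2 scale. These averaged −0.11 ± 0.39 (SD over 3 replicates; 95% confidence interval −0.54 to 0.32; adjusted p = 0.815 from limma). *NAM7* thus had the mean farthest from 0 of the 9 genes and also the largest spread, one larger than that of 82.5% of all genes.

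*NMD2*, which encodes Upf2, the bridge between Upf1 and Upf3, gave −0.29, −0.14 and 0.21 in the same order, averaging −0.072 ± 0.26 (95% confidence interval −0.41 to 0.27). *UPF3*, the third NMD core factor, gave −0.17, −0.16 and 0.078, averaging −0.081 ± 0.14 (95% confidence interval −0.36 to 0.20). The adjusted p from limma was 0.842 for *NMD2* and 0.784 for *UPF3*. On the dye swap of replicate 3 the log2 ratio of *UPF3* was −0.081, against 0.24 on the other array of the same RNA, so that its sign in replicate 3 was not the same on both arrays.

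The decapping enzyme is made of the catalytic subunit Dcp2 and its activator Dcp1. The log2 ratios of *DCP2* in replicates 1 to 3 were −0.21, −0.21 and 0.32, averaging −0.035 ± 0.30 (SD; 95% confidence interval −0.40 to 0.33). Those of *DCP1* were −0.048, 0.044 and 0.20, averaging 0.064 ± 0.12 (95% confidence interval −0.21 to 0.33). In replicate 3 both arrays gave ratios above 0 for both genes, with 0.23 and 0.40 for *DCP2* and 0.23 and 0.16 for *DCP1*. *XRN1*, the cytoplasmic 5′ to 3′ exonuclease, gave log2 ratios of 0.0024, −0.090 and 0.31, averaging 0.073 ± 0.21 (95% confidence interval −0.24 to 0.38). Its value in replicate 3 was close on both arrays, 0.33 and 0.29. The adjusted p from limma was 0.937 for *DCP2* and 0.819 for both *DCP1* and *XRN1*.

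Among the activators of decapping, the DEAD-box helicase gene *DHH1* had signs opposite to those of the NMD factors in each replicate. Its log2 ratios were 0.22 and 0.28 in replicates 1 and 2 and −0.22 in replicate 3, where it was the only one of the 9 genes with a ratio below 0. These averaged 0.090 ± 0.27 (SD; 95% confidence interval −0.26 to 0.44; adjusted p = 0.806 from limma). *LSM1*, the subunit that sets the cytoplasmic Lsm ring apart from the nuclear one, gave log2 ratios of 0.11, 0.058 and 0.013, averaging 0.060 ± 0.048 (95% confidence interval −0.19 to 0.31). It was the only one of the 9 genes with ratios on 1 side of 0 in all 3 replicates, a property that 18.7% of all genes had above 0 and 18.5% had below 0. On the dye swap alone the ratio of *LSM1* was −0.045. *PAT1*, which encodes a scaffold that joins the Lsm ring to the decapping enzyme, gave log2 ratios of −0.068, −0.075 and 0.12, averaging −0.0081 ± 0.11 (95% confidence interval −0.27 to 0.26). The adjusted p from limma was 0.819 for *LSM1* and 0.980 for *PAT1*. The highest and the lowest mean of the 9 genes, those of *DHH1* and *NAM7*, lay 0.20 apart on the log2 scale, less than the SD of either.

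Spot noise was small beside the spread between replicates for most of the genes. The 9 probes had 2 or 3 spots each per array, all of them well above background and none saturated, and 2 of the 80 spots were left out as outliers. Spots of 1 probe on 1 array differed with a median SD of 0.040 and at most 0.14, whereas the SD between replicates ran from 0.048 for *LSM1* to 0.39 for *NAM7*, with a median of 0.21 (0.20 over all genes). For *LSM1* and *UPF3* the SD between replicates was smaller than that between spots on at least 1 array. The spot ratios of both arrays of replicate 3 overlapped for *DCP1* and *XRN1*. They did not overlap for *NAM7*, *NMD2*, *UPF3*, *DCP2*, *DHH1*, *LSM1* and *PAT1*. The share of all genes without such overlap was not counted, so this describes the 9 probes only.

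Replicate 3 was of the other sign than replicates 1 and 2 for 6 of the 9 genes (*NAM7*, *NMD2*, *UPF3*, *DCP2*, *DHH1* and *PAT1*), as it was for 36.9% of all genes. The median of the 9 ratios was −0.068 in replicate 1, −0.090 in replicate 2 and 0.20 in replicate 3. Without replicate 3, limma called 602 of all genes (9.63%) at an adjusted p below 0.05, and 0 of the 9 decay factors. *NAM7* came closest, with a log2 ratio of −0.33 (95% confidence interval −0.58 to −0.085; unadjusted p = 0.0169, adjusted p = 0.0930 from limma over 2 replicates), and it was the only one of the 9 with an unadjusted p below 0.05, as were 30.3% of all genes. Next were *DHH1* with 0.25 (adjusted p = 0.166), *DCP2* with −0.21 (adjusted p = 0.220) and *NMD2* with −0.21 (adjusted p = 0.231). The others were *UPF3* with −0.16, *LSM1* with 0.083, *PAT1* with −0.072, *XRN1* with −0.044 and *DCP1* with −0.0016. As the mutant was in Cy5 in both replicates 1 and 2, a dye bias of a probe is part of these values and calls.

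The levels of some of these mRNAs differed more between replicates than between strains. These levels are log2 intensities after loess and quantile scaling of the arrays, and they are compared for 1 probe at a time. In replicates 1 and 2 the wild-type level is from Cy3 and the mutant level from Cy5, whereas replicate 3 averages both dyes. A dye bias of a probe is therefore part of the differences in level between replicate 3 and the others. The wild-type level of *UPF3* was 12.43 and 12.33 in replicates 1 and 2 and 11.14 in replicate 3, and that of *esl1Δ esl2Δ* cells was 12.26, 12.18 and 11.21. For *DCP1* it was 12.96, 13.12 and 11.86 in the wild-type and 12.91, 13.16 and 12.06 in the mutant. For *DCP2* it was 12.31, 12.32 and 11.15 in the wild-type and 12.09, 12.11 and 11.46 in the mutant. These 3 genes were thus lower in replicate 3 in both strains, and within each strain the level in replicate 3 lay below both others.

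Against the mean of replicates 1 and 2, the wild-type level in replicate 3 was 1.24 log2 units lower for *UPF3*, 1.18 for *DCP1* and 1.17 for *DCP2*. The same difference in the mutant was 1.00, 0.98 and 0.64 log2 units. A wild-type level lower by at least 1 log2 unit in replicate 3 was found for these 3 of the 9 genes and for 6.54% of all genes, and a mutant level so much lower for 1 of the 9, *UPF3*, and for 1.25% of all genes. With each channel scaled on its median instead, the counts were 3 and 0 of the 9 genes (4.61% and 0.783% of all genes), since *UPF3* in the mutant then came to 0.99 log2 units. *NMD2* was lower in replicate 3 too, by 0.73 log2 units in the wild-type and 0.30 in the mutant. *DHH1* and *PAT1* went the other way. The level of *DHH1* in replicate 3 was 0.82 log2 units above the mean of replicates 1 and 2 in the wild-type and 0.35 above it in the mutant, and that of *PAT1* 0.47 and 0.66 above it. *LSM1* had the narrowest range of levels, 0.23 log2 units over the 3 wild-type samples and 0.27 over the 3 mutant samples. The level of *NAM7* in replicate 3 lay 0.50 log2 units above the mean of replicates 1 and 2 in the mutant and differed from it by −0.18 in the wild-type, and with channel median scaling these differences were 0.57 and 0.00062. For *XRN1* they were 0.24 in the mutant and −0.11 in the wild-type, and 0.48 and 0.36 with channel median scaling. Replicate 3 is 1 pair of samples, and what set it apart was not tested.

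**Figure D3:**
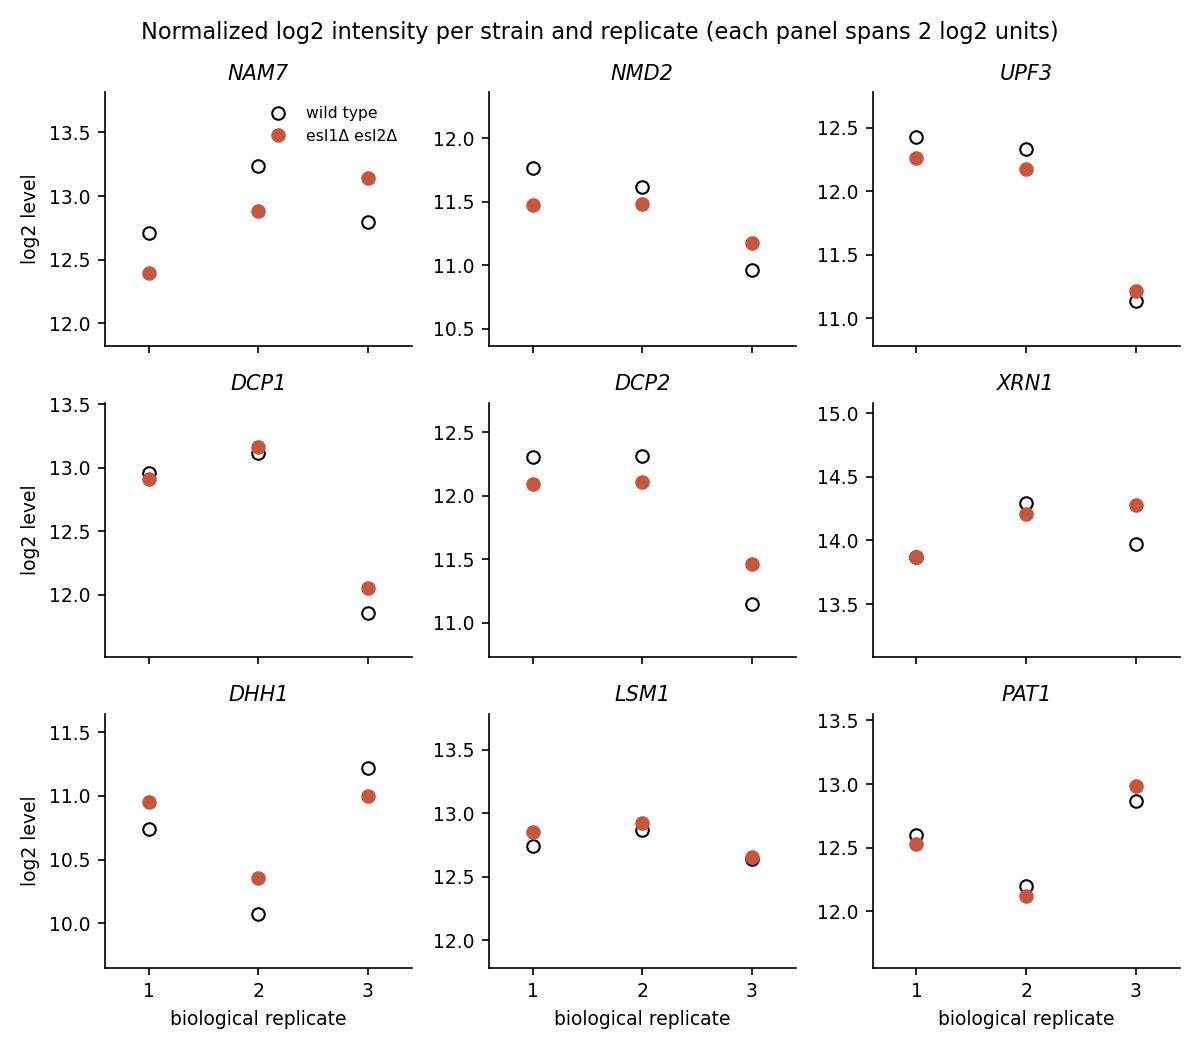
Normalized log2 intensity (vertical axis, each panel spanning 2 log2 units) of the 9 decay factors in wild-type (open) and *esl1Δ esl2Δ* cells (filled) in each biological replicate (horizontal axis), with both arrays of replicate 3 averaged. In *UPF3*, *DCP1* and *DCP2* both strains drop together in replicate 3, whereas *LSM1* stays within a narrow range.

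Only replicate 3 was measured in both dye orientations, on 1 array each, so that dye bias of a probe could be estimated there and not in replicates 1 and 2. The dye difference is given as the part of the log2 ratio that changes sign when the dyes are exchanged, that is 0.5 times the difference between the log2 ratio on the array with the mutant in Cy5 and that on the dye swap. It was −0.22 for *NAM7*, whose ratio was 0.13 with the mutant in Cy5 and 0.56 on the dye swap. In size this was above the dye difference of 95.01% of all genes, whose median was 0.074. It was 0.16 for *UPF3* and −0.13 for *PAT1*, and between −0.087 and 0.058 for the other 6 genes.

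When the dye difference of replicate 3 was subtracted from replicates 1 and 2, the log2 ratios of *NAM7* in these replicates were −0.092 and −0.14, in place of −0.31 and −0.36, and the mean of its 3 replicates was 0.038. For *UPF3* the subtraction had the opposite effect and gave −0.32 and −0.31 in replicates 1 and 2. *DHH1* came to 0.27 and 0.33. Whether the dye difference was of the same size in replicates 1 and 2 was not measured. This correction was chosen after the data had been seen.

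**Figure D4:**
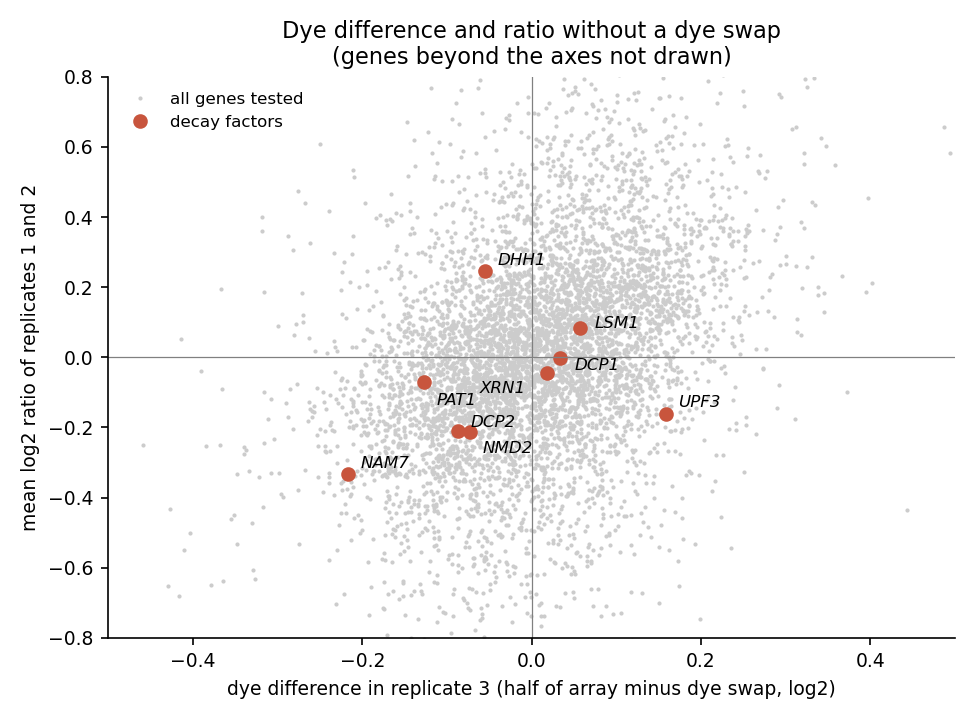
Dye difference in replicate 3 (horizontal axis, log2 units) against the mean log2 ratio of replicates 1 and 2 (vertical axis), for all genes (grey) and for the 9 decay factors (orange), with genes beyond the axes not drawn. *NAM7* lies farthest to the left of the 9 and has the lowest mean ratio of replicates 1 and 2, while *UPF3* lies farthest to the right and *DHH1* is the highest.

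The genes with ratios most like those of *NAM7*, by the Euclidean distance over its 3 replicate log2 ratios, were *LEU3*, the regulator of leucine synthesis, at a distance of 0.022, YHL012W at 0.043 and *PPH3*, a protein phosphatase gene, at 0.043. The log2 ratios of *LEU3* were −0.29, −0.36 and 0.36. With 3 replicates and over 6254 genes, such distances describe the pattern only.

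Other genes of mRNA decay were examined in 7 lists with 67 genes, all of them on the array. At an adjusted p below 0.05 limma called 0 of the 67, while 3 had an unadjusted p below 0.05 and 1 was past 2-fold, beside the 0.112%, 13.3% and 0.799% of all genes. Over the 67 the mean log2 ratios had a median of −0.058. Ratios were below 0 in all 3 replicates for 16 of the 67 and above 0 for 7, beside 18.5% and 18.7% of all genes.

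Closest to the 9 genes are the 4 NMD cofactors and translation release factors and the 13 other decapping factors. The former had a median of −0.12, from −0.22 for *SUP35*, which encodes the release factor eRF3, to 0.028 for *NMD4*, which encodes a partner of Upf1. The other decapping factors had a median of 0.10, from −0.17 for *SCD6*, a decapping activator, to 0.28 for *LSM5*, a subunit shared by both Lsm rings. None of these lists had a gene with an unadjusted p below 0.05, and the 6 other subunits of the cytoplasmic Lsm ring had means from −0.14 for *LSM3* to 0.28 for *LSM5*.

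The 12 genes listed for deadenylation, the shortening of the poly(A) tail before decapping, had a median of −0.00062. They ran from −0.32 for *PAB1*, which encodes the poly(A)-binding protein, to 0.21 for *CAF130*. The dye difference of *PAB1* in replicate 3 was −0.35. Its mean was −0.092 with that difference subtracted, −0.0020 in a fit with a dye term and −0.53 without replicate 3. The 15 genes of the exosome and the Ski complex, which degrade mRNA from the 3′ end, had a median of −0.070, from −0.29 for *RRP6* to 0.16 for *SKI8*. The 4 genes of the nuclear 5′ to 3′ pathway and of no-go decay had a median of −0.13, from −0.21 for *RAT1*, the nuclear relative of *XRN1*, to 0.17 for *DOM34*.

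The 5 genes of the nuclear TRAMP polyadenylation complex had a median of −0.23 and held 2 of the 3 genes with an unadjusted p below 0.05. *AIR1*, an RNA-binding subunit, gave log2 ratios of −0.64, −0.81 and −0.00071, averaging −0.48 ± 0.42 (SD; adjusted p = 0.354 from limma). *TRF5*, a noncanonical poly(A) polymerase, gave log2 ratios of −0.59, −0.56 and −0.16, averaging −0.44 ± 0.24 (adjusted p = 0.284). Its paralog *PAP2*, also known as *TRF4*, had a mean of −0.23 and *AIR2* one of 0.097. Without replicate 3, limma called 6 of the 67 genes, beside 9.63% of all genes. Each of the 6 was lower in the mutant, as were 51.5% of the 602 genes called, and in replicate 3 the ratio of 3 of the 6 (*CTF13*, *RRP6* and *SUP45*) was above 0. They were *CPA1*, *AIR1*, *CTF13*, *TRF5*, *RRP6* and *SUP45*, with log2 ratios from −1.45 for *CPA1* to −0.46 for *SUP45* and adjusted p-values from 0.00623 to 0.0461. Strain and dye cannot be told apart in this fit, which had the mutant in Cy5 only.

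The list of 14 genes taken as NMD targets had a median of −0.15, with a range from −1.10 for *CPA1* to 0.26 for *RPL28*. The *ade2-1* allele carried by both strains has a premature stop codon. *ADE2* (YOR128C) gave log2 ratios of −0.043, −1.01 and −0.34, averaging −0.46 ± 0.49 (SD; adjusted p = 0.414 from limma) and −0.52 without replicate 3, so that no replicate had a ratio above 0. *RPL28* (YGL103W), also known as *CYH2*, whose unspliced precursor is an NMD substrate, gave log2 ratios of 0.0023, 0.37 and 0.41, averaging 0.26 ± 0.23 (adjusted p = 0.447) and 0.19 without replicate 3. Its mean depended on the normalization, with 0.60 under median centring in place of loess (unadjusted p = 0.00612, adjusted p = 0.149 from limma). It was 0.34 in a fit with a dye term and 0.21 without replicate 2. Whether the probe of *RPL28* binds the precursor is not given in the sources used here, and mature mRNA adds to its signal in any case. *CPA1* (YOR303W), which encodes a subunit of carbamoyl phosphate synthase for arginine synthesis and has an upstream open reading frame, gave log2 ratios of −1.50, −1.41 and −0.41, averaging −1.10 ± 0.61 (adjusted p = 0.196). It was the only one of the 67 genes past 2-fold, and its mean fell short of 2-fold under 4 alternatives, with −0.91 without replicate 1, −0.95 without replicate 2, −0.99 with the dye difference subtracted and −0.70 with all 4 arrays in a fit with a dye term.

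The list medians depended on single replicates and on how the dyes were handled. Without replicate 3 the median was −0.24 for the NMD cofactors and release factors, 0.12 for the other decapping factors and 0.036 for the deadenylation genes. It was −0.14 for the exosome and Ski genes, −0.15 for the nuclear and no-go genes, −0.42 for TRAMP and −0.17 for the NMD targets. The median of the other decapping factors was −0.081 without replicate 1, 0.0018 without replicate 2 and 0.0041 with the dye difference subtracted. With the dye term the median turned above 0 for the NMD targets (0.062), the NMD cofactors and release factors (0.033) and the exosome and Ski genes (0.016). That fit also gave replicate 3 more weight than replicates 1 and 2 together. With the dye difference subtracted, the medians of these lists stayed below 0, at −0.043, −0.070 and −0.11 in the same order. No direction of a list is therefore drawn from its median.

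**Figure D5:**
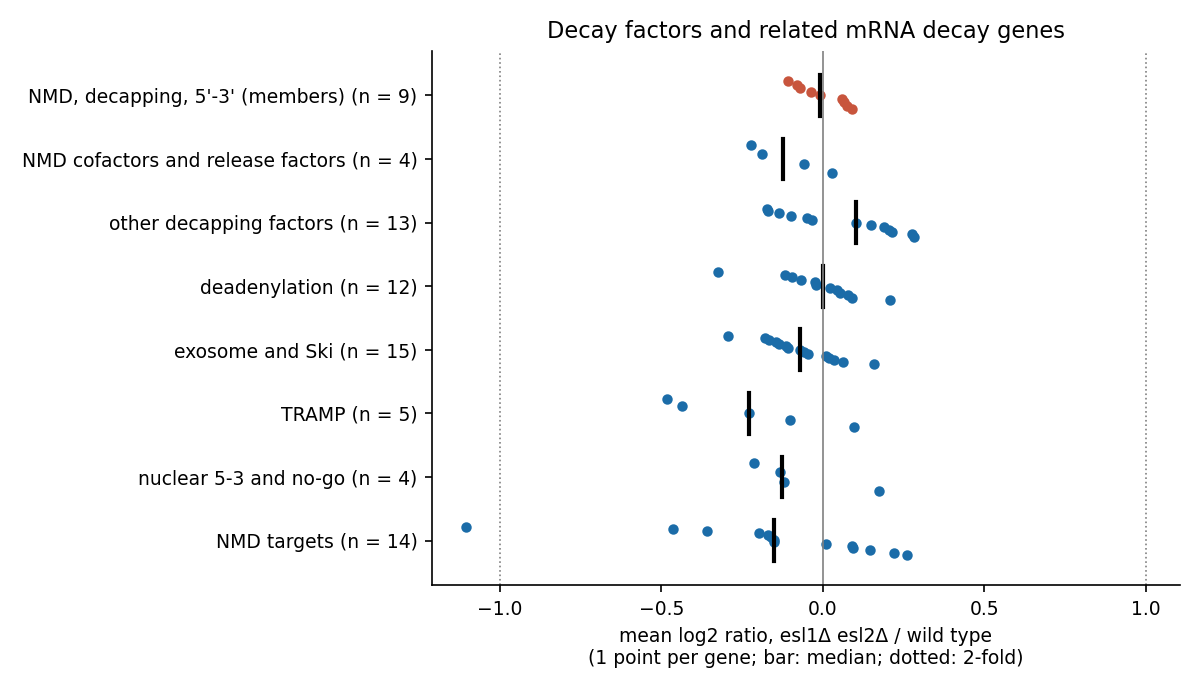
Mean log2 ratios (horizontal axis, 1 point per gene, n = 3 replicates) of the 9 decay factors (orange) and of 7 lists of related genes (blue), with the median of each list as a black bar and dotted lines at 2-fold. The 9 decay factors lie between −0.11 and 0.090, and *CPA1* among the NMD targets is the only point past 2-fold, which it was not under 4 alternatives.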

How the data were processed

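Starting from 500 ng of total RNA for each labeling, the authors hybridized 4 arrays on 1 slide and deposited spot intensities, that is median foreground and local background per channel without normalization, made by Feature Extraction 10.1.1.1 per the file headers. The same deposited files hold background-subtracted intensities and the log10 ratio of red over green, which is dye-normalized by the software. With limma 3.58.1 (R 4.3.3, and version 1.17.8 of data.table), the intensities were background-corrected by normexp (offset 50) and normalized by loess within each array with control spots at weight 0. The 536 control spots and the spots flagged as outliers of each array were left out, spots of a probe were averaged, and every ratio was expressed as mutant over wild-type. Replicate 3 took the mean of its arrays, and 6254 of 6256 genes had 3 ratios, which were tested against 0 (lmFit and eBayes, two-sided, threshold 0.05, Benjamini-Hochberg over 6254 genes). By signs alone, the smallest exact p with 3 replicates is 0.25. The fit was tested on simulated data with independent replicates and no dye bias, so that test does not cover the dyes or the difference of replicate 3. Current gene symbols came from a RefSeq table (assembly R64, 5756 genes matched). The array design is older than this assembly, so no coordinates are given. The genes, lists, named genes (all 9, and of each list the extremes, those called or past 2-fold and both NMD reporters; *LSM3*, *TRF5*, *PAP2*, *CTF13* and *SUP45* were named after their values were seen) and tests were chosen with earlier results of these data known. The authors' series table holds the same log10 ratios and was not used. The number of replicates limits the precision, and nothing says that the replicates were separate clones, so p-values measure the spread between these samples.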

Additional observations from a re-analysis of the deposited data

How the results depend on the processing

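Under 13 other settings, none of the 9 decay factors had an adjusted p below 0.05 by limma or a mean past 2-fold, nor when each replicate was left out in turn, and the direction of *UPF3*, *DCP1*, *XRN1* and *LSM1* was the same under all 13. The means lie so near 0 that others changed sign. With all 4 arrays in a fit with a dye term, which gives the dye swap as much weight as the other 3 arrays together, the log2 ratio was 0.19 for *NAM7*, 0.095 for *NMD2*, 0.17 for *DCP2*, −0.047 for *DHH1*, 0.098 for *PAT1* and −0.059 for *NMD4*. With the dye difference subtracted it was 0.038 for *NAM7*, 0.023 for *DCP2*, 0.077 for *PAT1* and −0.0092 for *AIR2*. Median centring gave 0.00054 for *DCP2* and 0.0091 for *PAT1*, the Feature Extraction log ratio 0.0015 for *PAT1*, and the dye swap alone for replicate 3 gave 0.034 for *PAT1*. The cause was not tested.

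Leaving out each replicate in turn gave −0.33 to 0.018 for *NAM7*, −0.21 to 0.036 for *NMD2*, −0.0016 to 0.12 for *DCP1*, −0.21 to 0.054 for *DCP2*, −0.044 to 0.16 for *XRN1*, −0.0035 to 0.25 for *DHH1*, −0.072 to 0.025 for *PAT1* and −0.020 to 0.12 for *NMD4*. The count of decay factors above 0 in every replicate was 2 in each of these fits, that below 0 was 0 to 5, which fewer replicates allow, and that of related genes called was 0 to 6. The shares of all genes with such signs were not counted for these fits or for the alternatives below, so nothing is drawn from the sign counts. The count above 0 was 2 with median centring and with the dye difference subtracted, and 0 with the dye swap alone for replicate 3. The count below 0 was 1 with the dye swap alone (*UPF3*) and 1 with it left out (*PAT1*). With separate channels and no replicate block, in place of ratios paired within an array, the median of the 9 means was −0.0081, as before, and 0 of the 9 were called.

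The number of all genes called was 7, 1 with the Feature Extraction log ratio, 11 with median centring, 4 with the dye swap alone, 2 without replicate 1 and 3 without replicate 2. The alternative with mean spot signals was not run, since the files used here have no such column, and the background-subtracted signal was used in its place. This alternative, the subtraction of the dye difference and the scaling of levels by channel medians were added after the data had been seen.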
